A study of Paxillus involutus with 18 samples.

Results

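Transcript levels of 5 cytochrome P450 monooxygenase isotigs, paxillus_2772, paxillus_3631, paxillus_3633, paxillus_4020 and paxillus_8099, were followed in mycelium of *Paxillus involutus* on 18 NimbleGen arrays. An isotig is a transcript assembled from sequencing reads, and these 5 were taken by identifier from the 12214 isotigs on the array. They are isotigs to which the annotation of the study gave this enzyme name and which it had chosen for a rise on at least 1 organic matter extract over the mineral medium, so the values on those extracts describe the choice and were not tested. The identifiers in the files carry no gene name or description, so the enzyme name could not be checked against the data, and other P450 isotigs are not analysed here. Isotigs paxillus_3631 and paxillus_3633 belong to 1 isogroup, the assembly's term for a gene, and their values may not be separate measurements.

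All arrays held RNA of the wild-type strain ATCC 200175, grown axenically on glass beads without a host plant for 9 days in Minimum Melin Norkrans medium (MMN) and then deprived of N for 24 h. The mycelium was kept for a further 7 days in a hot-water extract of spruce forest litter (FH), a hot-water (MH) or cold-water (MC) extract of maize compost, carboxy methyl cellulose (CMC), or MMN as the control. The extracts had passed a 0.2 µm filter, held the fraction above a cut-off of 10 kDa, and like CMC had received glucose. The study gives the same final glucose concentration for these media as for MMN. Each group had 3 arrays: FH, MH and a first set of MMN were hybridised on slide 1, and MC, CMC and a second set of MMN on slide 2. One of the MC arrays, replicate 3, is described as MH in its free text while its title, source and medium say MC. After removal of the mean of each isotig it correlated on average at 0.832 with the remaining MC arrays, and at 0.408 with the MH arrays. The remaining MC arrays share its slide and the MH arrays do not, so these values do not separate medium from slide. The array was kept as MC, and the differences from MMN on MC are also given without it.

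Cytochrome P450 monooxygenases are haem enzymes that use molecular oxygen, and electrons that a reductase takes from NADPH, to insert an oxygen atom into an organic substrate. In fungi most are anchored in the endoplasmic reticulum, so they act on compounds inside the cell, and they serve sterol synthesis, secondary metabolism and the turnover of foreign compounds. In basidiomycetes that decay wood the family is large, and some of its members hydroxylate or demethylate aromatic compounds of the kind released from lignin. The substrates of the 5 isotigs described here are not known from the sources used.

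The values are those deposited after robust multi-array averaging (RMA), used on a log2 scale, so that a difference of 1 is 2-fold. Array medians lay between 11.45 and 11.47, random control probes between 3.69 and 3.85, and the 5 isotigs, each with 10 probes, between 9.90 and 12.63. The files do not state the base of the logarithm. It was read as log2, as RMA gives, because as a natural logarithm 63.5% to 66.3% of the isotigs of an array would exceed what a 16-bit scanner image can hold. Every medium was set against the MMN arrays of its own slide in a linear model over all 18 arrays, and the standard errors (SE) come from that model. FH and MH thus share the MMN arrays of slide 1, and MC and CMC those of slide 2. The labels speak of biological replicates but not of how they were separated, so p-values measure only the spread between these arrays.

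The 5 isotigs did not share 1 pattern over the media. On MC all 5 lay above MMN without overlap, as did 26.3% of all isotigs, and 3 of them were over 2-fold higher, where 2.82% of all isotigs were over 2-fold higher without overlap. On MH 1 isotig, paxillus_2772, was over 2-fold higher, against 4.49% of all isotigs. Without regard to size, 3 lay above MMN on MH without overlap and paxillus_8099 lay below, against 32.9% and 42.8% of all isotigs. On FH none was over 2-fold higher, against 0.966% of all isotigs, and 3 lay above MMN without overlap, against 23.0%. On CMC 2 of the 5 did so, against 25.8% of all isotigs. In median, the log2 difference of the 5 was 0.20 on FH, 0.59 on MH, 1.22 on MC and 0.12 on CMC, beside -0.06, -0.06, -0.07 and -0.07 over all 12214 isotigs. The 3 extracts were used to choose the isotigs, so nothing is read from these counts.

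**Figure D1:**
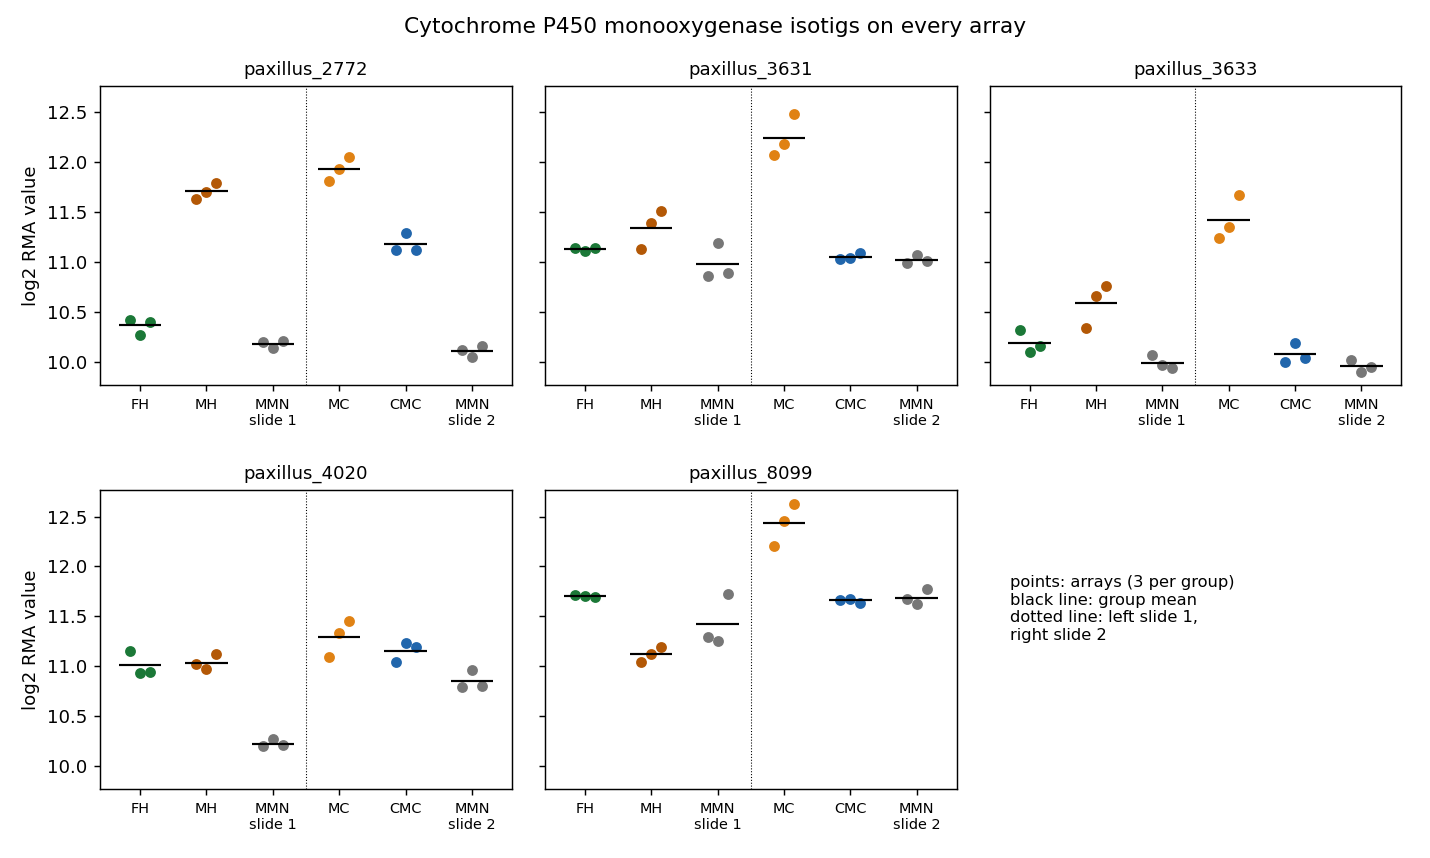
Log2 RMA value (vertical axis) of each of the 5 isotigs on every array, with 3 points per group, the group mean as a black line, slide 1 on the left and slide 2 on the right of the dotted line. The highest single value of every isotig is an MC array, and the MMN arrays of paxillus_4020 lie apart between the slides, at 10.79 to 10.96 on slide 2 and 10.20 to 10.26 on slide 1.

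The largest difference from MMN in each isotig was found on MC for 4 of them. It was 3.54-fold for paxillus_2772, 2.77-fold for paxillus_3633 and 2.33-fold for paxillus_3631. The largest difference of paxillus_4020 was 1.76-fold on MH, and that of paxillus_8099 was 1.67-fold on MC. Thus 3 of the 5 exceeded 2-fold on an extract on the log2 scale, with paxillus_3631 just inside and paxillus_4020 just outside. The study's own threshold was a rise of more than 2-fold on at least 1 extract, at a false discovery rate under 0.01. On the log2 scale paxillus_4020 and paxillus_8099 stayed under that fold threshold. If the deposited values were natural logarithms, the same differences would be 2.25-fold for paxillus_4020 and 2.1-fold for paxillus_8099, and all 5 would exceed 2-fold. By medium, the number of the 5 over 2-fold would then be 1 for FH, 2 for MH and 4 for MC, against 3.01%, 9.74% and 5.82% of all isotigs.

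Isotig paxillus_2772 was the one that exceeded MMN over 2-fold in more than 1 medium. Its log2 values were 11.81, 11.93 and 12.05 on MC and 11.12, 11.29 and 11.12 on CMC, against 10.12, 10.05 and 10.16 on MMN of slide 2. On slide 1 they were 10.42, 10.27 and 10.40 on FH and 11.63, 11.71 and 11.79 on MH, against 10.20, 10.14 and 10.20 on MMN. No group overlapped with the next in this order within a slide, but FH lay only just above MMN. The log2 difference from MMN was 0.19 (SE 0.07) on FH, 1.53 (SE 0.07) on MH and 1.83 (SE 0.07) on MC, and 1.77 on MC without replicate 3.

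Between the media themselves, paxillus_2772 was 2.54-fold higher on MH than on FH, a log2 difference of 1.34 (SE 0.07). This exceeded the same difference of 99.8% of the isotigs, and it was the only 1 of the 5 over 2-fold higher on MH than on FH, against 0.737% of all isotigs. Together with paxillus_3633 it made 2 of the 5 that lay above FH on MH without overlap, against 29.5% of all isotigs. On MC it was 1.69-fold higher than on CMC, a log2 difference of 0.76 (SE 0.07), or 0.70 without MC replicate 3. Relative to MMN of the own slide, MC exceeded MH by 0.29 (SE 0.10) on the log2 scale, or by 0.24 without MC replicate 3. The difference of 0.29 was larger than that of 83.3% of the isotigs. Also across slides, the highest FH array, at 10.42, stood under the lowest CMC array, at 11.12. Relative to MMN, CMC exceeded FH by 0.88 (SE 0.10). The levels of paxillus_2772 thus ran, from high to low, MC, MH, CMC, FH and MMN. This order crosses slides, rests there on the MMN arrays of both, and was not tested. The extracts had served to choose the isotigs, so the ranks and shares among all isotigs given here only describe paxillus_2772.

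On CMC, which the choice of the isotigs had not used, paxillus_2772 rose with a log2 difference of 1.07 (SE 0.07, 95% interval 0.93 to 1.21, adjusted p = 8.91e-10 from limma), or 2.1-fold, with 3 of 3 arrays above all MMN arrays. It was the only 1 of the 5 isotigs called higher on CMC at an adjusted p under 0.01 and over 2-fold, where 1.66% of all isotigs were called, and none of the 5 was called lower, where 0.352% of all isotigs were called. None of the 5 lay lower at an unadjusted p under 0.05 from limma either, where 36.5% of all isotigs did. Isotig paxillus_4020 passed the p threshold without the fold threshold, with a log2 difference of 0.30 (SE 0.08, 95% interval 0.12 to 0.48, adjusted p = 0.0062 from limma), or 1.23-fold. At that p alone 19.0% of all isotigs were higher on CMC. The adjusted p of paxillus_4020 ranged between 2.46e-05 and 0.0336 over the alternatives, and was 0.0336 without CMC replicate 2, 0.0229 without CMC replicate 3, 0.0283 without MMN replicate 1 of slide 2 and 0.0229 without MMN replicate 3 of slide 2, all from limma. The 5 isotigs were listed with results on CMC known, and the MMN arrays also served for MC, so this test is not fully separate from their choice.

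**Figure D2:**
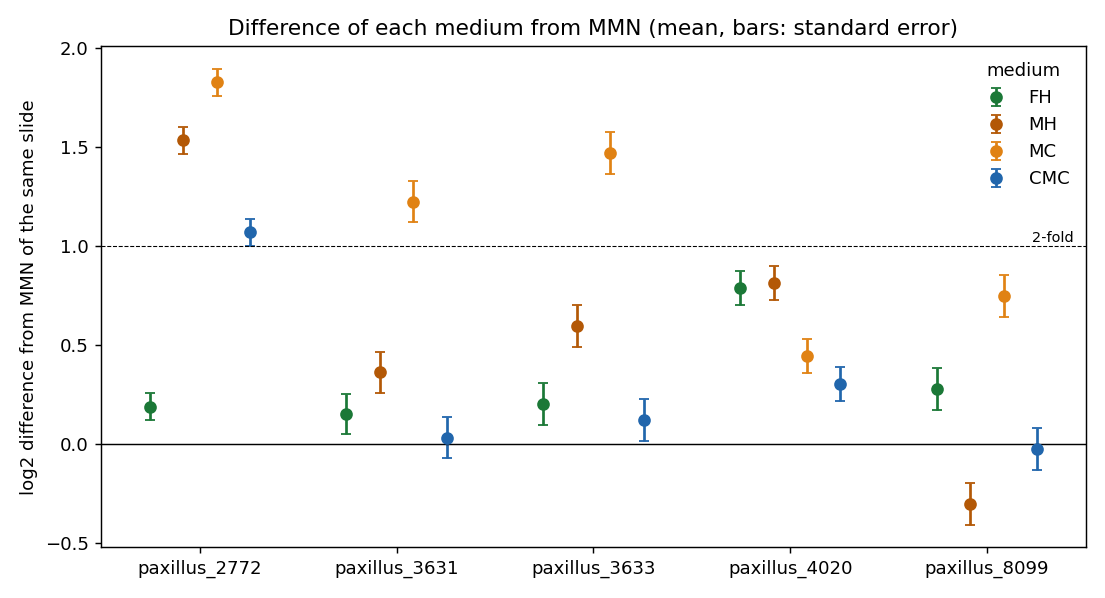
Log2 difference of each medium from the MMN arrays of its own slide (vertical axis) for the 5 isotigs, as means of 3 against 3 arrays with the standard error of the linear model, and with the 2-fold level dashed. CMC exceeds 2-fold for paxillus_2772 at 1.07, whereas paxillus_3631, paxillus_3633 and paxillus_8099 lie between -0.03 and 0.12 on CMC.

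The isogroup of paxillus_3631 and paxillus_3633 was highest on the cold-water compost extract. Log2 values of paxillus_3631 were 12.07, 12.18 and 12.48 on MC and 11.03, 11.04 and 11.09 on CMC, against 10.99, 11.07 and 11.01 on MMN of slide 2. On slide 1 they were 11.14, 11.11 and 11.14 on FH and 11.13, 11.39 and 11.51 on MH, against 10.86, 11.19 and 10.89 on MMN. Only MC was free of overlap with MMN, and on slide 1 all neighbouring groups overlapped. The log2 difference from MMN was 0.15 (SE 0.10) on FH, 0.36 (SE 0.10) on MH and 1.22 (SE 0.10) on MC, and 1.10 on MC without replicate 3.

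Isotig paxillus_3633 followed the same order with a wider span. Its log2 values were 11.24, 11.35 and 11.67 on MC and 10.00, 10.19 and 10.03 on CMC, against 10.02, 9.90 and 9.95 on MMN of slide 2. On slide 1 they were 10.32, 10.10 and 10.15 on FH and 10.34, 10.66 and 10.76 on MH, against 10.07, 9.96 and 9.94 on MMN. Here FH and MH both lay above MMN without overlap, and the lowest MH array only just above the highest FH array. The log2 difference from MMN was 0.20 (SE 0.11) on FH, 0.59 (SE 0.11) on MH and 1.47 (SE 0.11) on MC, and 1.34 on MC without replicate 3.

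Both isotigs of the isogroup were higher on the cold-water than on the hot-water extract of maize compost. Relative to MMN of the own slide, MC exceeded MH by 0.86 (SE 0.14) on the log2 scale for paxillus_3631 and by 0.87 (SE 0.15) for paxillus_3633, and by 0.74 and 0.75 without MC replicate 3. For each of them this exceeded the difference of 99.5% of the isotigs. MC and MH had served to choose the isotigs, so the ranks and shares given here for these media are descriptions. These extracts were hybridised on different slides, so the comparison rests on the MMN arrays of both, which for this isogroup differed by 0.04 and -0.04 between slide 2 and slide 1. The 3 MC arrays also lay above the 3 CMC arrays of the same slide, by 1.19 (SE 0.10) for paxillus_3631 and 1.35 (SE 0.11) for paxillus_3633, or by 1.07 and 1.22 without MC replicate 3. They were the 2 of the 5 that were over 2-fold higher on MC than on CMC, against 0.819% of all isotigs, and 4 of the 5 lay above CMC on MC without overlap, against 18.7%. On CMC neither isotig passed the test against MMN. The log2 difference was 0.03 for paxillus_3631 (95% interval -0.18 to 0.25, adjusted p = 0.811 from limma). It was 0.12 for paxillus_3633 (95% interval -0.11 to 0.34, adjusted p = 0.35 from limma), so a change of the size seen on MC lay outside both intervals.

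The distance between the isotigs of the pair was compared on each array. It was not itself a criterion of the choice, but it comes from the same arrays and values, so it is not separate from the choice. The value of paxillus_3631 minus that of paxillus_3633 was 0.83, 0.83 and 0.81 on MC and 1.03, 0.85 and 1.05 on CMC, against 0.97, 1.17 and 1.06 on MMN of slide 2. On slide 1 it was 0.82, 1.01 and 0.99 on FH and 0.79, 0.72 and 0.75 on MH, against 0.79, 1.23 and 0.94 on MMN. On both compost extracts the distance was smaller on every array than on any MMN array of the slide, with a mean change of -0.25 on MC and -0.23 on MH. On MH the gap was narrow, with 0.792 on the highest MH array and 0.795 on the lowest MMN array, and the change was -0.115 without MMN replicate 2 of slide 1. The exact two-sided permutation test gave p = 0.1 for MC, p = 0.1 for MH, p = 0.9 for FH and p = 0.4 for CMC, where 0.1 is the smallest p that 3 against 3 arrays allow. The difference thus could not reach 0.05 in this design, and no conclusion is drawn from this test. The MMN arrays of slide 1 spread more widely (SD 0.22, n = 3) than those of MC (SD 0.01, n = 3).

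**Figure D3:**
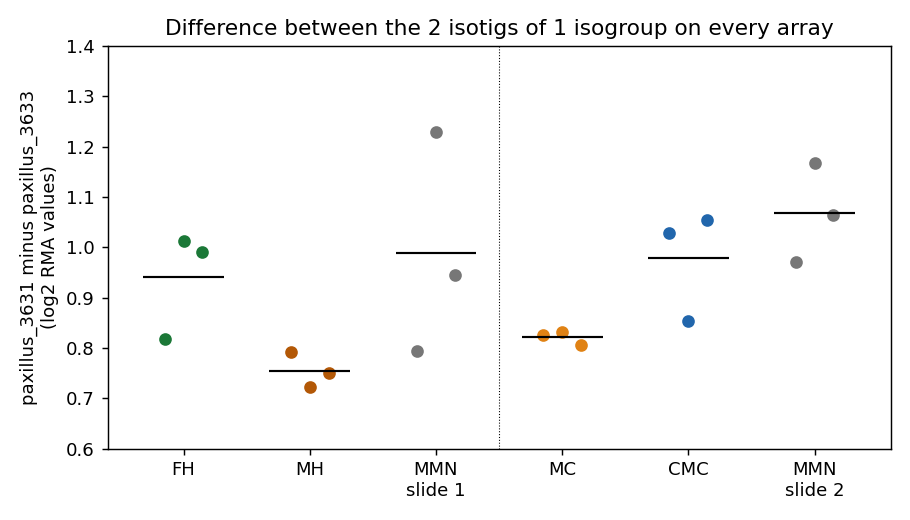
Log2 RMA value of paxillus_3631 minus that of paxillus_3633 (vertical axis, which does not start at 0) on every array, with 3 points and a mean line per group, slide 1 left and slide 2 right of the dotted line. The 3 MC arrays lie between 0.81 and 0.83 and the 3 MMN arrays of slide 2 between 0.97 and 1.17.

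Isotig paxillus_8099 lay on opposite sides of MMN on the compost extracts. Its log2 values were 12.20, 12.46 and 12.63 on MC and 11.67, 11.67 and 11.63 on CMC, against 11.67, 11.62 and 11.77 on MMN of slide 2. On slide 1 they were 11.71, 11.70 and 11.69 on FH and 11.05, 11.13 and 11.19 on MH, against 11.29, 11.25 and 11.73 on MMN. All MC arrays lay above, and all MH arrays below, the MMN arrays of their slide, and 42.8% of all isotigs lay below MMN in this way on MH. The log2 difference from MMN was 0.28 (SE 0.11) on FH, -0.30 (SE 0.11) on MH and 0.74 (SE 0.11) on MC, and 0.64 on MC without replicate 3.

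One MMN array of slide 1, replicate 3, stood at 11.73 for paxillus_8099, close to the FH arrays and the MMN arrays of slide 2. Without it the log2 difference was -0.15 on MH and 0.43 on FH. The difference between MH and FH does not use MMN, and it was -0.58 (SE 0.11), or 0.67-fold, with all MH arrays below all FH arrays, as in 35.3% of all isotigs. Only 3.47% of the isotigs had a lower value in that comparison. Relative to MMN, MC exceeded MH by 1.05 (SE 0.15) on the log2 scale, or by 0.95 without MC replicate 3, which was more than in 99.7% of the isotigs. It was the 1 isotig of the 5 over 2-fold higher on MC than on MH, against 0.287% of all isotigs, but without MC replicate 3 it was under 2-fold. Over FH, 3 of the 5 were over 2-fold higher on MC, namely paxillus_2772, paxillus_3631 and paxillus_3633, against 0.802% of all isotigs. Without MC replicate 3 the log2 differences were 1.58, 0.95 and 1.14 in this order, so that 2 of the 5 exceeded 2-fold. All these comparisons between extracts reuse the arrays of the choice, so their ranks and shares are descriptions and were not tested. Isotig paxillus_8099 did not pass the test on CMC, with a log2 difference of -0.03 (95% interval -0.25 to 0.19, adjusted p = 0.834 from limma).

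Isotig paxillus_4020 was the one that stood about as far above MMN on the litter extract as on the hot-water compost extract. On slide 1 its log2 values were 11.15, 10.94 and 10.94 on FH and 11.02, 10.97 and 11.12 on MH, against 10.20, 10.26 and 10.21 on MMN. On slide 2 they were 11.10, 11.33 and 11.45 on MC and 11.04, 11.23 and 11.19 on CMC, against 10.79, 10.96 and 10.80 on MMN. Each medium lay above its MMN arrays, whereas FH overlapped with MH and MC with CMC. The log2 difference from MMN was 0.79 (SE 0.08) on FH, 0.81 (SE 0.08) on MH and 0.44 (SE 0.08) on MC, and 0.36 on MC without replicate 3.

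The MMN arrays of paxillus_4020 were themselves apart, averaging 10.85 ± 0.10 for slide 2 and 10.22 ± 0.04 for slide 1 (SD, n = 3 each). The log2 difference of slide 2 minus slide 1 was 0.63 (SE 0.08, 95% interval 0.45 to 0.81, adjusted p = 2.5e-04 from limma), or 1.54-fold, and for replicates 1, 2 and 3 it was 0.59, 0.70 and 0.59. With only the 6 MMN arrays in the fit the adjusted p was 0.0109 from limma, and over all alternatives it ranged from 1.75e-04 to 0.0109. It was the only 1 of the 5 isotigs past an adjusted p under 0.01 here, as were 8.13% of all isotigs in either direction and 3.82% with the higher level on slide 2, and its difference was larger in size than that of 99.2% of them. For the other isotigs this difference was -0.07 (adjusted p = 0.488) in paxillus_2772, 0.04 (adjusted p = 0.808) in paxillus_3631, -0.04 (adjusted p = 0.837) in paxillus_3633 and 0.26 (adjusted p = 0.088) in paxillus_8099, all from limma. Without MMN replicate 3 of slide 1, that of paxillus_8099 was 0.41 (adjusted p = 0.0063 from limma).

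**Figure D4:**
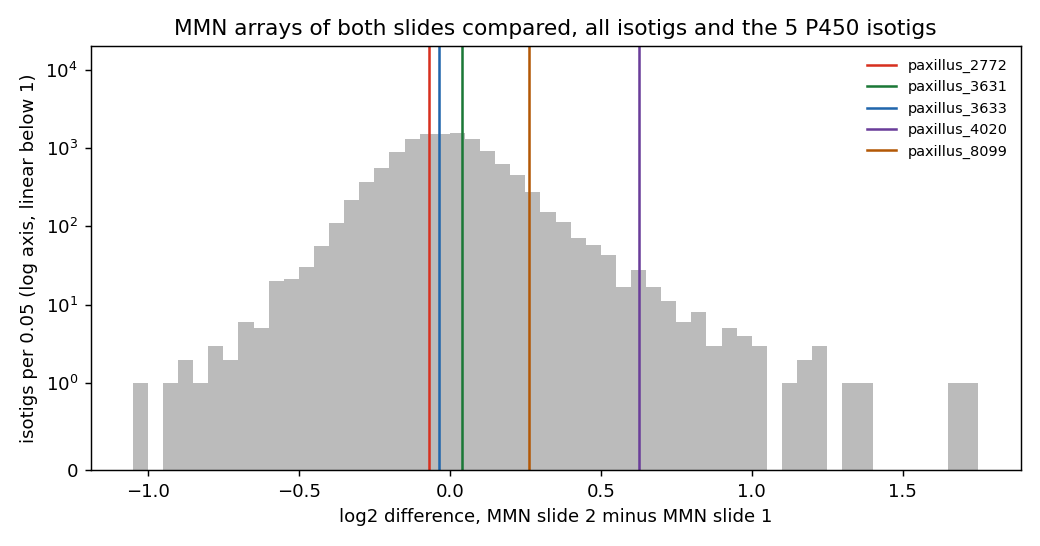
Number of isotigs (vertical axis, logarithmic above 1) by their log2 difference between the MMN arrays of slide 2 and those of slide 1 (horizontal axis, 3 arrays each), with the 5 isotigs as vertical lines. The line of paxillus_4020, at 0.63, lies in the right tail, and those of paxillus_2772, paxillus_3631 and paxillus_3633 lie between -0.07 and 0.04.

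For paxillus_4020 the sign of the comparisons across slides differed with and without subtraction of MMN. Relative to MMN of the own slide, MC was lower than FH by a log2 difference of -0.34 (SE 0.12) and CMC was lower than FH by -0.48 (SE 0.12). As levels, MC exceeded FH by 0.28 and CMC exceeded FH by 0.15. With MMN averaged over both slides per replicate number, the difference from MMN became 0.47 on FH, 0.50 on MH, 0.76 on MC and 0.62 on CMC. The order of the 4 media in paxillus_4020 thus depended on the MMN arrays used, and the slide and other differences between the sets of MMN arrays cannot be told apart. Within a slide, MH and FH differed by 0.03 (SE 0.08) and MC and CMC by 0.14 (SE 0.08), and in both pairs the arrays overlapped.

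Isotigs named as other enzymes that act on aromatic compounds were set beside the P450 isotigs. The list of 12 holds laccases and tyrosinases, which oxidise phenols, a haem peroxidase, an aromatic peroxygenase and a catechol 1,2-dioxygenase. It too consists of isotigs chosen for rises on these arrays. On CMC 4 of the 12 were called higher and none lower, with a median log2 difference of 0.65, against 1 of the 5 P450 isotigs with a median of 0.12. Of all isotigs, 1.66% were called higher on CMC and 0.352% lower. The number over 2-fold higher was 7 of 12 on FH, 8 of 12 on MH and 7 of 12 on MC, with medians of 1.07, 1.14 and 1.42. For the P450 isotigs these numbers were 0, 1 and 3 of 5. Of all isotigs, 0.966% on FH, 4.49% on MH and 2.82% on MC were over 2-fold higher without overlap. The difference between the lists was not tested, since both were chosen on these values.

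The aromatic peroxygenase paxillus_10214, which like a P450 transfers oxygen to aromatic rings but takes it from hydrogen peroxide, had log2 differences of 0.25 on FH, 0.50 on MH, 1.26 on MC and 0.03 on CMC. Those of paxillus_3631 were 0.15, 0.36, 1.22 and 0.03 in the same media, and likeness of these values says nothing of shared function.

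The course of the isotigs was compared over the 18 arrays, each array taken as its difference from the mean MMN value of its slide. The pair paxillus_3631 and paxillus_3633 had Pearson r = 0.974, and the lowest r, 0.0625, was that of paxillus_4020 and paxillus_8099. The most similar isotig outside the 5 was paxillus_9754 for paxillus_2772 (r = 0.993), with log2 differences of 0.10 on FH, 1.61 on MH, 1.98 on MC and 1.14 on CMC. For paxillus_3633 it was paxillus_741 (r = 0.990), for paxillus_3631 paxillus_9370 (r = 0.978), for paxillus_4020 paxillus_1128 (r = 0.957) and for paxillus_8099 paxillus_5097 (r = 0.946). The number of isotigs with r over 0.9 was 334 for paxillus_2772 and 2 for paxillus_8099. These isotigs carry no name in the files, and arrays of 1 medium and 1 slide are not independent points.

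With the group means removed, all 10 pairs among the 5 isotigs still correlated positively over the 18 arrays, with r between 0.239 and 0.83. The highest of these was that of paxillus_2772 and paxillus_3633, which are of different isogroups, and that of paxillus_3631 and paxillus_3633 was 0.668. On MC, replicate 3 held the highest and replicate 1 the lowest value of each of the 5. How often other isotigs hold this order, or correlate positively in pairs, was not computed, so neither is read as particular to the 5. The spread between replicates was wider than in 91.1% of all isotigs for paxillus_3631, 92.0% for paxillus_3633, 81.4% for paxillus_4020 and 91.6% for paxillus_8099, and wider than in 50.6% for paxillus_2772.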

How the data were processed

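The authors deposited 1 RMA value per isotig and array, read here as log2 (background corrected, normalized between arrays, probes summarised), and the deposited probe counts were read too. No source at hand gives the version of RMA or says whether both slides were normalized together. The values of the per-array files and of the series table were identical. The random control probes were left out of the fits. A linear model with 6 group means was fitted to 12214 isotigs with limma 3.58.1 in R 4.3.3 (12 residual and 5.35 prior degrees of freedom), with Benjamini-Hochberg adjustment over all isotigs. Calls on CMC needed an adjusted p under 0.01 and over 2-fold. The number of arrays limits the precision. On simulated data for CMC against MMN over 12214 isotigs, 98% to 100% of the isotigs changed by 1.5 or 2 on the log2 scale were called. The simulated noise was independent between arrays. The largest difference of the 5 on CMC was 1.07, so the simulation does not give the sensitivity at the sizes seen here.

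All 5 members were named, with the most similar other isotig for each. The members, the list of 12 isotigs and the tests were chosen with earlier results of these data known. Deviations of same-numbered MMN arrays of both slides correlated at 0.255, 0.451 and 0.495, each over 0.1. In some of the alternatives these numbers were therefore taken as paired, whereas the main test between the MMN arrays of both slides was unpaired. Correlations between same-numbered arrays of the media and MMN were not all over 0.1 in any medium. Alternatives were other MMN references, blocks, normalizations, thresholds, fits and each array left out. Comparisons between media under other scalings, and the pair without each array, were added after seeing the data. Of the identifiers, 0 matched the gene table at hand.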

Additional observations from a re-analysis of the deposited data

Results flagged for a closer look

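For paxillus_8099 all 3 MC arrays lay above and all 3 MH arrays below the MMN arrays of their slide, with log2 differences of 0.744 on MC and -0.303 on MH. The difference between these media was not tested, since both extracts had been used to choose the isotig, and it crosses slides. Without MMN replicate 3 of slide 1 the MH value was -0.152.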

How the results depend on the processing

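Read as natural logarithms, the counts over 2-fold became 1 on FH, 2 on MH and 4 on MC, against 0, 1 and 3. Without the fold threshold 2 of the 5 were called higher on CMC. Between the MMN arrays of both slides 1 of 5 passed, 0 with only those 6 arrays in the fit, and 1 to 2 with an array left out. As levels, without subtracting MMN, 4 comparisons of paxillus_4020 turned round: MC minus MH 0.257 against -0.37, MC minus FH 0.285 against -0.343, CMC minus FH 0.145 against -0.482 and CMC minus MH 0.118 against -0.51. For paxillus_8099 the levels gave 1.31 for MC minus MH, against 1.05, 0.729 for MC minus FH, against 0.468, 0.536 for CMC minus MH, against 0.274, and -0.0429 for CMC minus FH, against -0.304. For paxillus_3631 they gave -0.0783 for CMC minus FH, against -0.12. The counts over 2-fold on FH, MH and MC and of calls on CMC stayed at 0, 1, 3 and 1 with any array left out, and after repeated quantile normalization or median centring. With the replicate number as a block, 1 isotig was called on CMC and 1 between the MMN slides, and no call changed. Such a block matches same-numbered arrays of the media and MMN, although their correlations were not all over 0.1 in any medium. Without the dimmest 25% of isotigs, 4 of the 5 could be tested, since paxillus_3633 was among the isotigs left out.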
